A study of Mus musculus with 18 samples.

Results

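The transcripts of 10 iron handling and ferroptosis genes were followed in 18 injured mouse kidneys. The genes were taken from a list of names, drawn up with earlier results of these data known: the transferrin receptor *Tfrc*, the iron transporter *Slc11a2*, the ferritin subunits *Fth1* and *Ftl1*, the iron exporter *Slc40a1*, the ferroxidase *Cp*, the hormone *Hamp*, and the ferroptosis genes *Acsl4*, *Gpx4* and *Aifm2*. All 10 were among the 45706 genes of the deposited count tables, of which 30346 had a count in at least 1 kidney. No member passed the main test in either knockout (KO) cohort, and KO and control kidneys did not overlap for *Acsl4* and *Slc11a2* in the *Cxcl12* cohort (9.68% of all genes tested did not) and for *Tfrc* in the *Myc* cohort (5.97%).

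Whole kidneys came from adult male C57BL/6 mice of 10 to 12 weeks, whose renal pedicles had both been clamped for 22.5 min, with the organs taken 12 h after release. The *Cxcl12* KO mice (5 kidneys) were *Cxcl12* fl/fl with Pax8rtTA and TetOCre, and their controls (3 kidneys) were *Cxcl12* fl/fl with Pax8rtTA but no TetOCre. The *Myc* KO mice (5 kidneys) were *Myc* fl/fl with Pax8rtTA and TetOCre, and their controls (5 kidneys) were *Myc* fl/fl with Pax8rtTA but no TetOCre. All mice received doxycycline for 14 days with 1 week of washout, the Pax8 promoter limits the recombinase to tubule cells, and every group was injured, so that no value here stands for an uninjured kidney. Because whole organs were sequenced, fewer cells of a type and less RNA per cell cannot be told apart.

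Iron is carried to cells by transferrin, taken up with the transferrin receptor through endosomes, moved into the cytosol by DMT1 (the product of *Slc11a2*), stored in ferritin shells and released through ferroportin (the product of *Slc40a1*), the target of the liver hormone hepcidin. Proximal tubule cells also recover filtered iron, and free iron that is not stored can drive the peroxidation of membrane lipids. Ferroptosis is the form of cell death that follows when this peroxidation outruns its repair. ACSL4 supplies the polyunsaturated phospholipids that are oxidised, GPX4 reduces lipid peroxides with glutathione, and AIFM2 (FSP1) regenerates ubiquinol as a second line of defence. Acute ischemic tubule injury is a setting in which this form of death has been widely studied.

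Several of these transcripts carry iron-responsive elements, short hairpins that iron regulatory proteins bind when iron is scarce: binding in a 5′ UTR blocks translation, and binding in a 3′ UTR protects the transcript from decay. They are shown because, in the known mechanism, the 3′ elements act on transcript abundance, which counts measure, and the 5′ elements on translation, which counts do not. The search asked for a C, 5 bases, the loop CAGTGN with any last base but G, and 5 bases that pair with the first 5, where G-T pairs were allowed. Each sequence below is read 5′ to 3′ on the strand of the gene in GRCm38, with the 6 loop bases in capitals, and was taken from the GENCODE vM21 transcripts. In the 5′ UTR, matches stood in *Fth1* at chr19:9982733-9982759 (plus strand), *Ftl1* at chr7:45459780-45459806 (minus strand) and *Slc40a1* at chr1:45925466-45925492 (minus strand). In the 3′ UTR, *Tfrc* held 4 matches on the plus strand, at chr16:32631220-32631246, chr16:32631599-32631625, chr16:32631664-32631690 and chr16:32631711-32631737, in the order printed here.
Fth1 5′: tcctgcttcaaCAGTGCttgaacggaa
Ftl1 5′: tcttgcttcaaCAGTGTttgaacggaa
Slc40a1 5′: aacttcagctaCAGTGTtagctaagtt
Tfrc 3′, A: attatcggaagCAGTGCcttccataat
Tfrc 3′, B: attatcgggagCAGTGTcttccataat
Tfrc 3′, C: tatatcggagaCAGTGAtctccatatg
Tfrc 3′, D: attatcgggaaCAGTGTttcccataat
Of all annotated genes with such a UTR, 23 of 20916 (0.11%) held a match in the 5′ UTR and 100 of 21045 (0.475%) in the 3′ UTR. The other 6 members, *Slc11a2* among them, held none of this form, which says only that these letters and pairs are not in their UTRs. A hairpin with an unpaired base among these 5 pairs would not have been found, so an element in the other members is not excluded.

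Promoter windows from RefSeq (GRCm38.p6, 250 bases before to 50 after the start) were listed for 8 of the 10 members, and were not listed for *Slc40a1* and *Slc11a2*. None of their 14 windows held the E-box CACGTG, the core site of MYC, which stood in 7.15% of 32851 windows of the same length, or the antioxidant response core TGACNNNGC, which stood in 12.4%. Both strands were searched. A site outside these windows would not have been seen.

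Depth and purity set the frame for all values. Reads assigned to genes numbered 12918220 in the shallowest and 29749500 in the deepest kidney. In 6 kidneys under 5% of reads were unmapped and these were also the deepest (the deeper group): *Cxcl12* KO 1 and 2, *Myc* KO 3 and 5 and *Myc* control 1 and 3, with 0 *Cxcl12* controls. The labels name no batch, though the paper corrected its own values for batch effects. The targeted genes were lower in their own KO kidneys. *Cxcl12* was at 26.3 to 40.9 against 44.9 to 60.5 CPM (read counts scaled to library size, with TMM factors), a log2 fold change of −0.73 (SE 0.15, edgeR adjusted p = 0.094). *Myc* was at 26.6 to 37.0 against 79.7 to 117 CPM, a log2 fold change of −1.61 (SE 0.12, edgeR adjusted p = 8.8e-05). Markers of proximal tubule, distal tubule and podocytes were detected in every group, as kidney tissue should have them. The labels number the kidneys and name no animals, so p-values measure the spread between these kidneys.

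The members differed widely in level per transcript length, and *Fth1* stood far above the rest, with group means from 3705 to 4801 CPM per kilobase. *Ftl1* followed at 162 to 231 CPM per kilobase, *Gpx4* at 82.2 to 118 and *Acsl4* at 58.0 to 88.6, and the ranges of the last pair overlapped between groups. *Slc40a1* (32.5 to 38.3), *Cp* (19.3 to 33.6), *Tfrc* (19.1 to 28.4) and *Slc11a2* (21.3 to 28.1 CPM per kilobase) lay close together, and *Aifm2* was lowest at 7.19 to 9.12. Their order among themselves differed between groups. The length of 1 principal transcript was used per gene, so these levels are approximate. Of the 50-base words of *Ftl1* 58.4% and of *Gpx4* 34.7% recur in other genes, against 1.59% for *Fth1*. Reads that map to several places were not counted, so the levels of *Ftl1* and *Gpx4* may be too low.

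**Figure D1:**
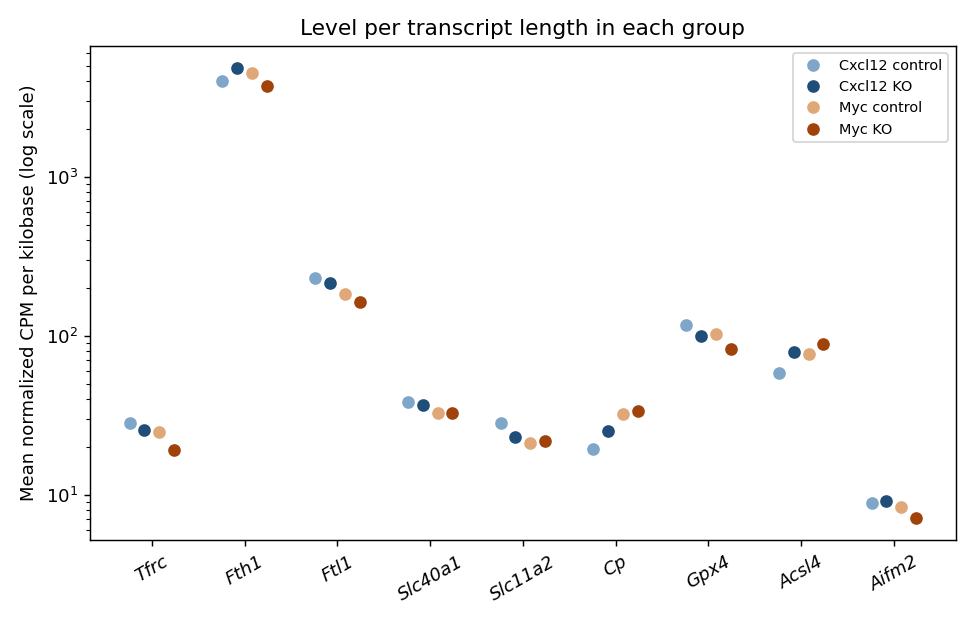
Mean normalized CPM per kilobase of transcript (log axis) of 9 members in the 4 groups, 1 point per group. *Fth1* lies between 3705 and 4801, and *Aifm2* between 7.19 and 9.12.

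*Hamp* (hepcidin, ENSMUSG00000050440, chr7:30942368-30944032, minus strand) had 0 counts in 17 of 18 kidneys and 1 count in *Myc* KO 3. A count of 0 allows up to 0.232 CPM in the shallowest and 0.101 CPM in the deepest kidney, counting error only. It did not pass the filter on low counts, so that 9 of the 10 members were tested. A part of its sequence (16.6% of 50-base words) is shared with *Hamp2*, and reads from that part were not counted if they mapped to both.

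In the *Cxcl12* cohort, 0 of the 9 tested members passed an adjusted p of 0.05 with edgeR, as did 0 of all 15154 genes tested (0%), although 1976 of them, members included, had an unadjusted p under 0.05. DESeq2, run as an alternative, called 355 of 15154 genes (2.34%), and 1 member among them, *Acsl4*. In the *Myc* cohort, 0 of 9 members and 246 of 14936 genes (1.65%) passed with edgeR, and 1 of 9 members, *Tfrc*, and 1139 genes (7.63%) with DESeq2. Before adjustment, 4 of 9 members had a p under 0.05 with *Cxcl12* deleted (13.04% of all genes) and 1 of 9 with *Myc* deleted (21.9% of all genes). KO and control kidneys did not overlap for 2 of 9 members in the *Cxcl12* cohort, where 9.68% of all genes did not overlap, and for 1 of 9 in the *Myc* cohort, where 5.97% did not. The members' median log2 fold change was −0.07 with *Cxcl12* and −0.17 with *Myc* deleted, and over all genes the medians were 0.00 and −0.00.

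**Figure D2:**
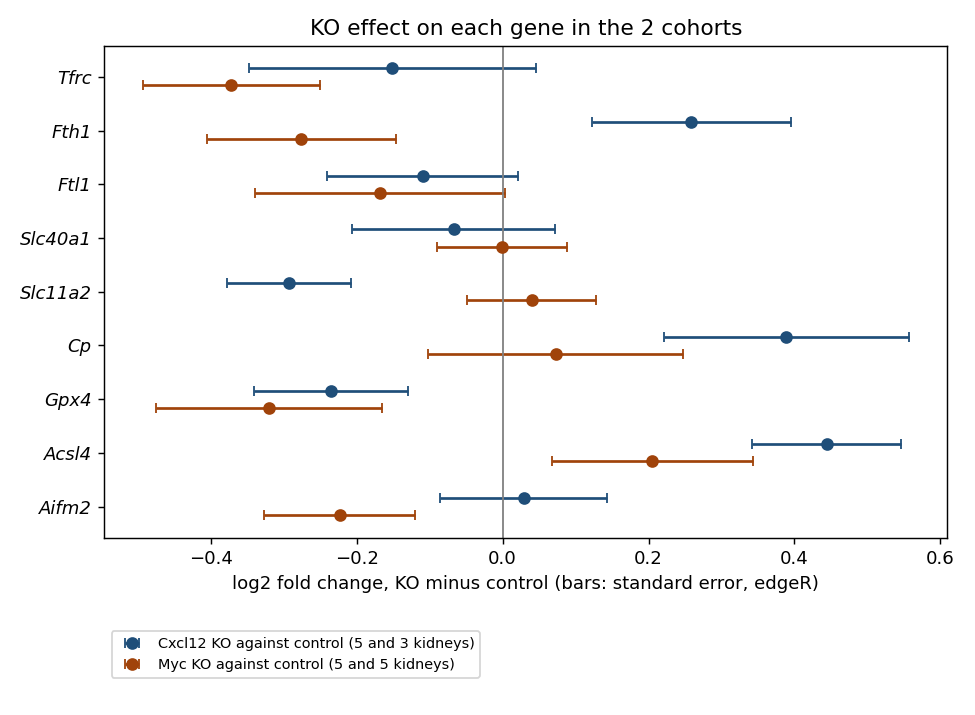
log2 fold change (KO minus control, x axis) of 9 members in the *Cxcl12* and *Myc* cohorts, with the standard error from edgeR as bars. *Acsl4* has the largest value in the *Cxcl12* cohort (0.44) and *Tfrc* the largest decrease in the *Myc* cohort (−0.37).

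*Tfrc* (ENSMUSG00000022797, chr16:32608920-32632794, plus strand) encodes the receptor that brings transferrin into cells. In *Myc* KO kidneys it was at 101, 97.4, 89.1, 79.8 and 100.4 CPM in replicates 1 to 5. In *Myc* controls it was at 106, 122, 109, 162 and 108 CPM. All 5 KO kidneys lay below every control, and the gap between the groups was narrow because 3 controls stood between 106 and 109.
The means were 93.5 ± 9.01 (SD, n = 5) and 121 ± 23.7 CPM (SD, n = 5), a log2 fold change of −0.37 (SE 0.12). The edgeR adjusted p was 0.12, that of DESeq2 0.0496 and that of limma-voom 0.13, and the exact permutation p was 0.0079, the smallest this design allows. Without *Myc* control 4, the highest control, the log2 fold change was −0.25 (edgeR adjusted p = 0.22). Outside the deeper group it was −0.49 (edgeR adjusted p = 0.12), so the difference was no smaller there.
In the *Cxcl12* cohort, *Tfrc* stood at 176, 134, 84.9, 129 and 102 CPM in the KO kidneys and at 158, 130.2 and 128 in the controls. The groups overlapped, and KO kidneys 1 and 2, both of the deeper group, were the highest of the 5. The log2 fold change was −0.15 (SE 0.20, edgeR adjusted p = 0.77), and −0.41 (edgeR adjusted p = 0.31) outside the deeper group.

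*Slc11a2* (ENSMUSG00000023030, chr15:100387898-100425072, minus strand) encodes DMT1, which carries ferrous iron out of endosomes. The *Cxcl12* KO kidneys had 63.0, 72.6, 64.1, 73.4 and 75.1 CPM and the controls 85.8, 80.8 and 88.6 CPM. Every KO kidney was below every control.
Its log2 fold change was −0.29 (SE 0.08, edgeR adjusted p = 0.20, DESeq2 adjusted p = 0.065), with an exact permutation p of 0.018, the smallest that 5 against 3 kidneys allow. Outside the deeper group it was −0.28 (edgeR adjusted p = 0.24). In the *Myc* cohort the KO kidneys ranged from 57.2 to 74.5 and the controls from 60.4 to 68.1 CPM, a log2 fold change of 0.04 (SE 0.09, edgeR adjusted p = 0.82). The difference between the KO effects was 0.33 (SE 0.12, edgeR adjusted p = 0.29). Exons of *Slc11a2* overlap *Gm5475* on the other strand by 402 bases. In the unstranded column, reads that fell on both genes were ambiguous and were counted for neither. *Cxcl12* KO 1, for example, had 1431 *Slc11a2* reads in that column, and 765 and 693 in columns 3 and 4.

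In the *Cxcl12* cohort, the sums of 3 marker lists stood apart between KO and control kidneys. The summed CPM of the 7 proximal tubule markers was 4116 to 4572 in KO and 4935 to 5688 in control kidneys. That of the 4 tubule injury markers was 2589.7 to 3146 against 1613 to 2440.3, and that of the 6 neutrophil markers 29.3 to 131 against 18.4 to 25.9. KO and control sums did not overlap for these lists, no marker was at 0 throughout a group, and 0 markers passed the edgeR test. In the *Myc* cohort these sums overlapped, with 3484 to 5698 against 3924 to 4610.3 CPM for proximal tubule, 2858 to 3345 against 2586 to 3386 for injury and 138 to 261 against 42.6 to 226 for neutrophils. Their part in the members' values was not tested. Red cell markers, which bear on *Tfrc* and the ferritins since reticulocytes carry both, summed to 37.4 to 164 against 15.1 to 67.5 CPM in the *Cxcl12* cohort and 43.4 to 111 against 31.9 to 175 in the *Myc* cohort, and overlapped in both. The sums of the macrophage, hepatocyte, adipocyte, endothelial, podocyte and distal markers overlapped in both cohorts too.

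*Fth1* (ENSMUSG00000024661, chr19:9980598-9985098, plus strand) encodes ferritin heavy chain, whose ferroxidase centre oxidises iron for storage. *Cxcl12* KO kidneys had 6938, 6842, 6042, 8303 and 7739 CPM and their controls 5269, 5906 and 6752 CPM. *Myc* KO kidneys had 6358, 6379.9, 5483, 4798 and 4656 CPM and their controls 6709, 6456, 6028, 8323 and 6030.2 CPM.
All 5 *Cxcl12* KO kidneys were above the mean of their controls and all 5 *Myc* KO kidneys below the mean of theirs, while the groups overlapped in both cohorts. *Fth1* had a log2 fold change of 0.26 (SE 0.14, edgeR adjusted p = 0.45) with *Cxcl12* deleted and of −0.28 (SE 0.13, edgeR adjusted p = 0.24) with *Myc* deleted. The difference between the KO effects was −0.54 (SE 0.19, edgeR adjusted p = 0.25). In that test of a difference, 0 of 9 members passed, against 11 of 15903 genes (0.0692%).

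*Ftl1* (ENSMUSG00000050708, chr7:45457944-45459884, minus strand), the ferritin light chain, ran at 161 to 253 CPM in *Cxcl12* KO and 206 to 246 in control kidneys, and at 117 to 193 CPM in *Myc* KO and 124 to 235 in control kidneys. The groups overlapped in both cohorts. Its log2 fold changes were −0.11 (SE 0.13) and −0.17 (SE 0.17), with edgeR adjusted p of 0.75 and 0.59.
These counts are uncertain. Of the 50-base words of *Ftl1*, 58.4% recur in 17 other genes, among them its pseudogenes, and reads that map to several places (16.6 to 18.6% of all reads) were not counted. The counts of the 2 strands also differed: column 4 held 28.9% of the strand-specific *Ftl1* reads, against 49.1 to 51.1% for the other 8 tested members. This share was smaller in each kidney of the deeper group than in any kidney outside it. *Cxcl12* KO 1, of that group, had 3113 reads in column 3 and 555 in column 4, and *Cxcl12* control 1, outside it, 2409 and 1310. The log2 fold change in the *Cxcl12* cohort was 0.05 in column 3 and −0.45 in column 4. The deeper group holds *Cxcl12* KO but no *Cxcl12* control kidneys. In the unstranded counts the log2 fold change was 0.013 with that group as covariate and 0.006 outside it. The part of the deeper group in the values of columns 3 and 4 was not tested.

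*Slc40a1* (ENSMUSG00000025993, chr1:45908068-45926523, minus strand) encodes ferroportin, the only known iron exporter of mammals. It stood at 107 to 139 CPM in *Cxcl12* KO, 100.01 to 159 in *Cxcl12* control, 102 to 122 in *Myc* KO and 96.1 to 128 in *Myc* control kidneys. The ranges overlapped in both cohorts, and the log2 fold changes were −0.07 (SE 0.14) and −0.00 (SE 0.09), with edgeR adjusted p of 0.872 and 0.997.

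*Cp* (ENSMUSG00000003617, chr3:19957054-20009145, plus strand) encodes ceruloplasmin, a copper ferroxidase that loads exported iron onto transferrin and is also made in the acute phase. The *Cxcl12* KO kidneys had 124, 85.9, 88.3, 132 and 79.6 CPM and the controls 80.9, 80.1 and 72.3 CPM. All 5 KO kidneys were above the control mean, though KO kidney 5 lay between the controls.
*Cp* thus had a log2 fold change of 0.39 (SE 0.17, edgeR adjusted p = 0.37, exact permutation p = 0.14). Among the *Myc* mice, *Cp* ran from 88.6 to 194 CPM in KO and from 106 to 161 CPM in control kidneys, with a log2 fold change of 0.07 (SE 0.17, edgeR adjusted p = 0.84). Its highest *Myc* KO and highest *Myc* control values (194 and 161 CPM) both came from the deeper group.

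*Acsl4* (ENSMUSG00000031278, chrX:142317993-142390535, minus strand) had the largest difference of all members. The *Cxcl12* KO kidneys stood at 489, 411, 391, 417 and 381 CPM, and the controls at 305, 299.8 and 314 CPM. All 5 KO kidneys were above every control, with a gap wider than the range of the 3 controls.
The means were 418 ± 42.2 (SD, n = 5) and 306 ± 7.11 CPM (SD, n = 3), a 1.36-fold difference and a log2 fold change of 0.44 (SE 0.10). The edgeR adjusted p was 0.12, that of DESeq2 0.0021 and that of limma-voom 0.11, and the exact permutation p was 0.018, the smallest possible. Outside the deeper group the KO kidneys were at 381 to 417 CPM, still above all controls, and the log2 fold change was 0.36 (edgeR adjusted p = 0.14).
Among the *Myc* mice, *Acsl4* stood at 376, 403, 532, 441 and 588 CPM in KO and at 422, 313, 455, 427 and 418 CPM in control kidneys. The groups overlapped, and the highest 2 KO values and the highest control value belonged to the deeper group. The log2 fold change was 0.21 (SE 0.14, edgeR adjusted p = 0.40), and 0.08 (edgeR adjusted p = 0.74) outside the deeper group. The difference between the KO effects was −0.25 (SE 0.18, edgeR adjusted p = 0.68).

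*Gpx4* (ENSMUSG00000075706, chr10:80047166-80056439, plus strand), the selenoenzyme that reduces phospholipid peroxides, had 87.4, 84.6, 99.9, 101 and 108 CPM in *Cxcl12* KO and 103, 108 and 127 CPM in control kidneys. Among the *Myc* mice it had 95.6, 89.8, 70.1, 72.7 and 66.0 CPM in KO and 78.6, 107, 78.7, 134 and 94.8 CPM in control kidneys. In both cohorts all 5 KO kidneys were below the control mean and the groups overlapped.
The log2 fold changes were −0.24 (SE 0.11, edgeR adjusted p = 0.38) and −0.32 (SE 0.15, edgeR adjusted p = 0.25), and their difference was −0.09 (SE 0.21). The deeper kidneys were the lowest of their group in *Cxcl12* KO, *Myc* KO and *Myc* control, and outside that group the *Cxcl12* value was −0.14 and the *Myc* value −0.37. Of the 50-base words of *Gpx4*, 34.7% are shared with its pseudogene *Gpx4-ps2* and 1 other gene, so that its level is uncertain.

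*Aifm2* (ENSMUSG00000020085, chr10:61715263-61739260, plus strand), the lowest of the tested members, ran at 24.1 to 31.4 CPM in *Cxcl12* KO and 25.7 to 28.7 CPM in control kidneys, with a log2 fold change of 0.03 (SE 0.11, edgeR adjusted p = 0.94). Among the *Myc* mice it had 25.0, 22.4, 19.1, 20.7 and 23.8 CPM in KO and 26.98, 24.4, 23.0, 30.9 and 24.3 CPM in control kidneys. All 5 KO kidneys were below the control mean and the groups overlapped. Its log2 fold change was −0.22 (SE 0.10, edgeR p = 0.050, adjusted p = 0.23, exact permutation p = 0.056). Its exons overlap *H2afy2* on the other strand by 233 bases, and those of *Cp* overlap *Hps3* by 108 bases.

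**Figure D3:**
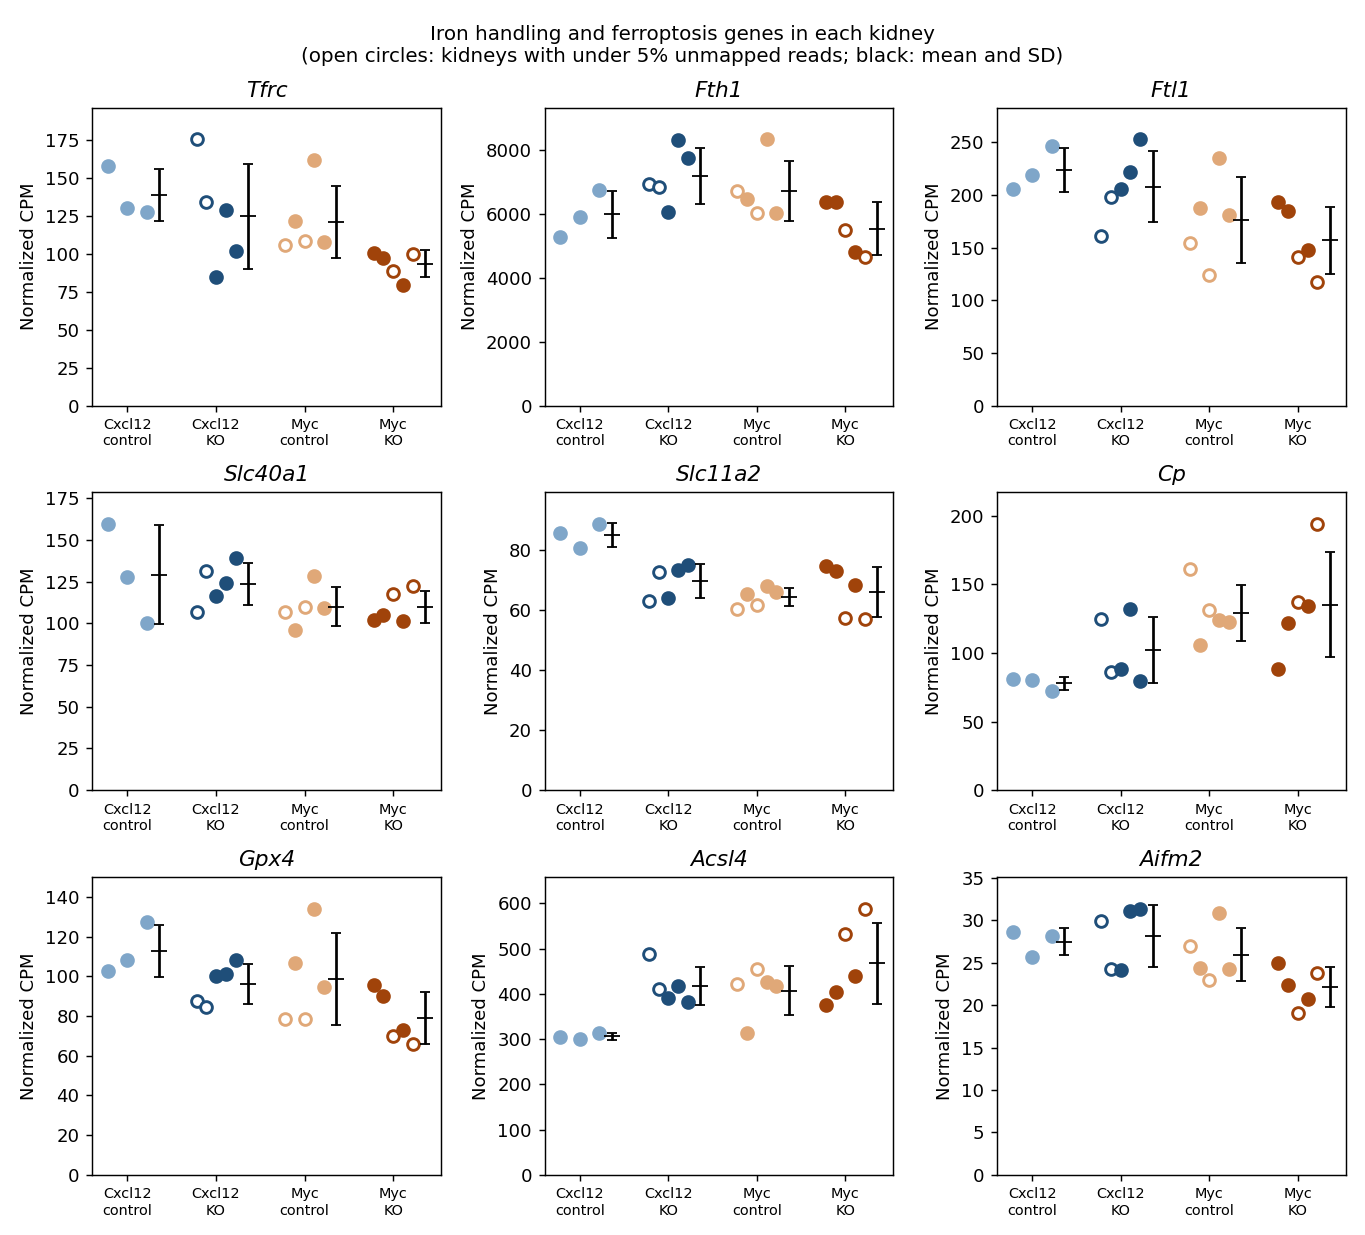
Normalized CPM (y axis, from 0) of 9 members in each of the 18 kidneys by group, with the mean and SD in black and the 6 kidneys of the deeper group as open circles. *Acsl4* and *Slc11a2* in the *Cxcl12* cohort and *Tfrc* in the *Myc* cohort are the panels in which KO and control kidneys do not overlap.

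Likeness across the 18 kidneys was described for 3 members over 13768 genes with a mean of at least 1 CPM. The log2 CPM of *Tfrc* was most like that of *Prdx3* (Pearson r = 0.92), *Vnn1* (0.90) and *Decr1* (0.90). *Fth1* was most like *Gm13509* (r = 0.91), *Atp6v1b2* (0.91) and *Plpp2* (0.90), and *Gpx4* most like *Cib1* (0.98), *Psmb5* (0.96) and *Tmem205* (0.96). The kidneys share the cohorts, the KO effects and the deeper group, and these were the best of many genes, so the values describe these kidneys only.

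Of 88 further genes of iron handling and ferroptosis in 7 lists, 81 could be tested with *Cxcl12* deleted and 80 with *Myc* deleted, of which 0 passed the edgeR test. An unadjusted p under 0.05 was found for 15 of 81 with *Cxcl12* deleted (13.04% of all genes tested) and 21 of 80 with *Myc* deleted (21.9% of all genes). DESeq2 called 4 of 81 (2.34% of all genes) and 7 of 80 (7.63% of all genes). Their median log2 fold change was 0.01 and −0.05. Not tested for low counts in either cohort were *Ftmt*, *Hephl1*, *Hjv*, *Tmprss6*, *Erfe*, *Hpx* and *Alox15*, and in the *Myc* cohort *Tfr2*.

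Among the 12 genes of transferrin, iron reduction and uptake, the log2 fold change was above 0 for 8 of 12 tested with *Cxcl12* deleted (median 0.05) and 8 of 11 with *Myc* deleted (median 0.20). Over all genes tested, the shares above 0 were 50.2% and 49.9%. *Slc39a8*, which encodes the metal transporter ZIP8, was at 23.0 to 40.2 in KO against 18.9 to 26.0 CPM in control kidneys of the *Cxcl12* mice and, in the same order, at 28.9 to 37.6 against 19.4 to 30.3 CPM for *Myc*, with log2 fold changes (the first value in each bracket from here on) of 0.35 (SE 0.18) and 0.36 (SE 0.14, edgeR adjusted p = 0.17). *Trf*, transferrin itself, was near the floor at 2.45 to 5.32 against 1.70 to 3.50 CPM in the *Myc* cohort (0.57, SE 0.26, edgeR adjusted p = 0.22). *Lcn2*, named here after its values were seen, encodes the siderophore-binding protein NGAL and is also on the tubule injury list. In the *Cxcl12* cohort it had 713 to 1254 CPM in KO and 471 to 613 CPM in control kidneys, without overlap (0.84, SE 0.18, edgeR adjusted p = 0.11, DESeq2 adjusted p = 8.2e-04). Outside the deeper group it passed the edgeR test in that cohort (1.01, adjusted p = 0.040).

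The 6 genes of storage and ferritin turnover had 4 tested members. *Pcbp1*, an iron chaperone that loads ferritin, stood at 217 to 292 against 279 to 313 CPM in the *Myc* cohort (−0.19, SE 0.09, edgeR adjusted p = 0.22), and *Heph*, a ferroxidase, at 10.7 to 16.9 against 8.71 to 14.5 CPM (0.36, SE 0.18, edgeR adjusted p = 0.26). Medians were −0.01 with *Cxcl12* deleted and −0.09 with *Myc* deleted.

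Among the 11 iron regulation genes, 8 were tested in each cohort, with medians of 0.14 and −0.02. *Smad7*, an inhibitor of the BMP pathway that drives hepcidin, had 55.3 to 78.0 CPM in *Myc* KO and 45.6 to 58.5 CPM in control kidneys (0.41, SE 0.10, edgeR adjusted p = 0.059, DESeq2 adjusted p = 0.0062). *Id1*, a BMP target, had 47.3 to 60.3 against 37.8 to 59.0 CPM (0.31, SE 0.13, edgeR adjusted p = 0.19). *Hfe*, a regulator of hepcidin, named after its values were seen, had 20.6 to 27.8 CPM in *Cxcl12* KO and 15.8 to 18.1 CPM in control kidneys (0.47, SE 0.12, edgeR adjusted p = 0.15, DESeq2 adjusted p = 0.033).

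Of the 17 heme genes 16 were tested, with medians of −0.01 with *Cxcl12* deleted and −0.13 with *Myc* deleted. *Blvra*, which turns biliverdin into bilirubin, had 41.1 to 66.0 CPM in *Myc* KO and 53.8 to 104 CPM in control kidneys (−0.51, SE 0.17, edgeR adjusted p = 0.13). With *Cxcl12* deleted its log2 fold change was 0.01 (SE 0.19).

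The 12 genes of mitochondrial iron and iron-sulfur cluster assembly were all tested. In each cohort 10 of 12 had a log2 fold change below 0, with medians of −0.09 and −0.14. Over all genes tested, 50.2% (*Cxcl12*) and 49.9% (*Myc*) were above 0. An unadjusted edgeR p under 0.05 was found for 0 of 12 with *Cxcl12* deleted (13.04% of all genes) and 2 of 12 with *Myc* deleted (21.9%). *Lyrm4*, a subunit of the cysteine desulfurase complex, had 9.42 to 13.9 against 11.6 to 19.9 CPM in the *Myc* cohort (−0.41, SE 0.15, edgeR adjusted p = 0.14). *Isca2*, which assembles clusters for mitochondrial enzymes, had 23.9 to 25.2 against 24.2 to 34.9 CPM (−0.25, SE 0.10, edgeR adjusted p = 0.19).

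On the lipid peroxidation side of ferroptosis, 10 of 11 genes were tested, with medians of 0.13 and 0.10. *Ptgs2*, the cyclooxygenase often used as a marker of ferroptosis but induced in inflammation as well, had the largest values. It stood at 12.6 to 39.7 against 11.3 to 14.5 CPM in the *Cxcl12* cohort (1.24, SE 0.31, edgeR adjusted p = 0.14, DESeq2 adjusted p = 0.0026) and at 68.0 to 143 against 28.1 to 72.8 CPM in the *Myc* cohort (1.09, SE 0.26, edgeR adjusted p = 0.059, DESeq2 adjusted p = 0.0016). The groups overlapped in both. Outside the deeper group, *Ptgs2* passed the edgeR test in the *Cxcl12* cohort (1.53, adjusted p = 0.0069) but not in the *Myc* cohort. With that group as covariate it passed in both (1.54, edgeR adjusted p = 0.027, and 1.08, edgeR adjusted p = 0.041). With limma-voom it passed in neither.
*Cyb5r1*, an oxidoreductase that feeds lipid peroxidation, had 34.9 to 40.4 CPM in *Myc* KO and 40.5 to 64.2 CPM in control kidneys, with no overlap (−0.50, SE 0.12, edgeR adjusted p = 0.063, DESeq2 adjusted p = 0.0087). *Vdac3* and *Sat1*, named after their values were seen, were called by DESeq2 alone. *Vdac3*, a channel of the outer mitochondrial membrane, had 19.9 to 23.4 against 24.5 to 32.1 CPM, a log2 fold change of −0.29 (SE 0.09, DESeq2 adjusted p = 0.045) in the *Myc* cohort. *Sat1*, a polyamine acetylase, had 292.9 to 492.9 against 209.6 to 265 CPM, a log2 fold change of 0.59 (SE 0.17, DESeq2 adjusted p = 0.028) in the *Cxcl12* cohort.

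On the defence side all 19 genes were tested, with medians of 0.03 and −0.10. *Coq2*, an enzyme of ubiquinone synthesis, had 51.7 to 56.9 CPM in *Myc* KO and 56.9 to 86.9 CPM in control kidneys (−0.35, SE 0.10, edgeR adjusted p = 0.099, DESeq2 adjusted p = 0.032). *Prdx6*, a peroxidase of phospholipids, had 180 to 232 against 221 to 298 CPM (−0.31, SE 0.10, edgeR adjusted p = 0.12, DESeq2 adjusted p = 0.046). In the *Cxcl12* cohort the values were −0.07 (SE 0.08) for *Coq2* and −0.04 (SE 0.10) for *Prdx6*.

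**Figure D4:**
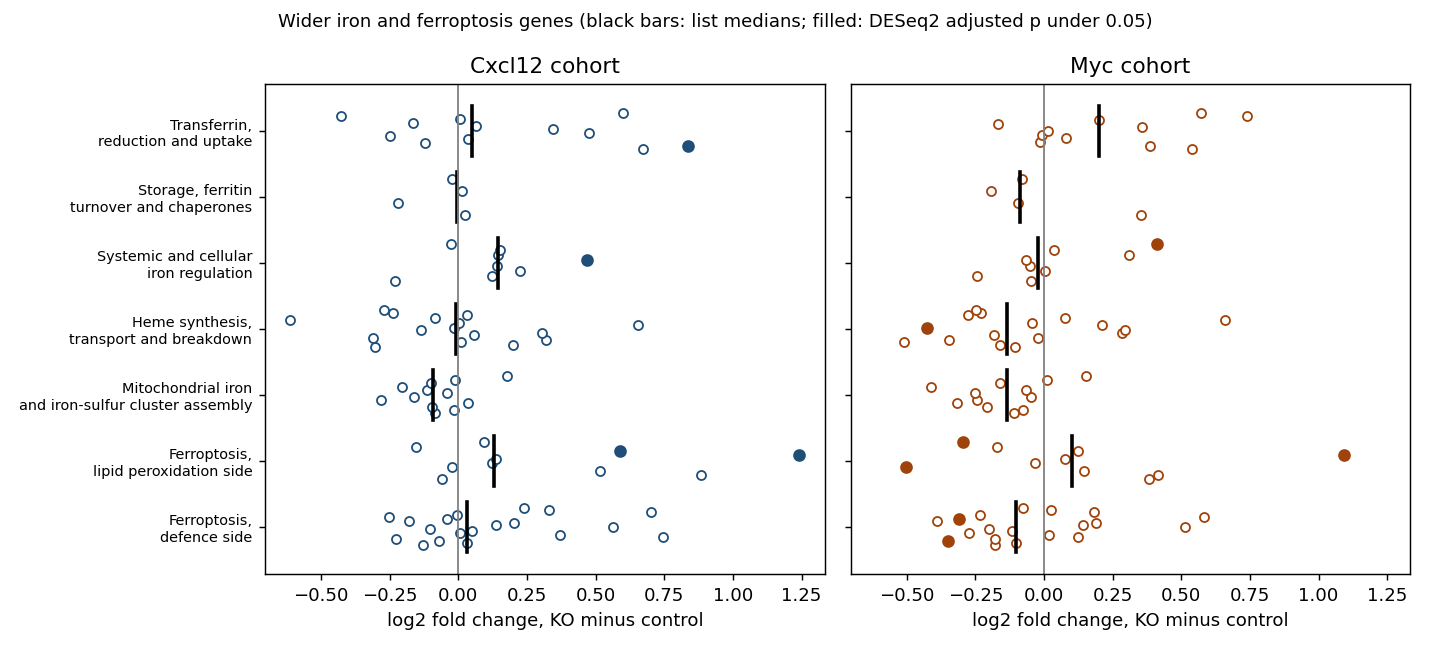
log2 fold change (KO minus control, x axis) of each tested gene of the 7 wider lists in the *Cxcl12* and *Myc* cohorts, with the median of each list as a black bar and genes called by DESeq2 filled. *Ptgs2* lies farthest from 0 in both cohorts, at 1.24 and 1.09.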

How the data were processed

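The authors trimmed the reads with Trimmomatic 0.32, aligned them to GRCm38 with STAR 2.4.0 and deposited raw, unnormalized counts per gene for each kidney. For their own analysis they also corrected for batch effects with ComBat. The main fits here used genotype alone. The gene annotation they used is not given in the sources used here. The unstranded column of the deposited counts was used. Gene names and positions came from GENCODE vM21 (45143 identifiers matched). Rows without a gene (29.4 to 32.6% of reads) were left out. The groups were taken from the labels.

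Within a cohort, low genes were dropped by filterByExpr, TMM factors were computed and genotype was tested with edgeR 4.0.16 (quasi-likelihood F-test, Benjamini-Hochberg adjustment over all genes, threshold 0.05) in R 4.3.3. The difference between the KO effects was fitted over all 18 kidneys. CPM were scaled by TMM over all 18 kidneys. Exact permutation tests were two-sided, on the mean log2 CPM (prior count 2). Alternatives used DESeq2 1.42.0, limma 3.58.1, other scalings, filters and count columns, the deeper group, a replicate block and leaving out each kidney. The scripts were tested on simulated data with changes larger than those of any member. That test does not speak to smaller changes. The members and lists were chosen with earlier results of these data known. Named beside the members are, of each list, the genes past the threshold or else the 2 with the smallest adjusted p in the *Myc* cohort, except that 1 gene is not reported here. Replicates are kidneys that the labels number separately. Figures were drawn with matplotlib 3.10.9 under Python 3.11.15.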

Additional observations from a re-analysis of the deposited data

Results flagged for a closer look

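*Fth1* was looked at again because every *Cxcl12* KO kidney lay above its control mean and every *Myc* KO kidney below its own. The difference between the KO effects was −0.54 on the log2 scale (SE 0.19, edgeR adjusted p = 0.25, DESeq2 adjusted p = 0.089). It ranged from −0.64 to −0.43 over the alternatives and kept its direction. The test of the difference itself did not pass in the main fit or in any alternative.

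*Acsl4* in *Myc* control 2 was at 313 CPM, set apart from the other 4 controls (418 to 455 CPM) by a gap of 0.737 of the range of the group. It was the only value so set apart among the 27 groups of 5 kidneys examined for the 9 tested members, and chance sets apart about 1 in 20.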

How the results depend on the processing

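The 27 log2 fold changes of members (9 members in both cohorts and in the difference between the KO effects) were recomputed under 18 alternatives each in the *Cxcl12* cohort, 20 in the *Myc* cohort and 27 for the difference, 585 values in all. Direction and side of the threshold were kept in 556 of these values, and 27 turned direction. Among the main values that turned, the one farthest from 0 was −0.17 (*Ftl1* with *Myc* deleted). Another 2 passed the threshold (*Acsl4* with *Cxcl12* deleted and *Tfrc* with *Myc* deleted, by DESeq2). The cause of the turns was not tested. *Acsl4* stayed between 0.38 and 0.47 and *Slc11a2* between −0.33 and −0.26 when any 1 kidney of the *Cxcl12* cohort was left out, and *Tfrc* between −0.42 and −0.25 in the *Myc* cohort. Low counts leave *Hamp* untested, and 3 controls limit the *Cxcl12* cohort.

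Directions turned as follows. *Ftl1* was at 0.01273 with the deeper group as covariate, 0.00619 outside it and 0.04992 in count column 3 with *Cxcl12* deleted, at 0.02873 in count column 4 with *Myc* deleted, and at 0.4738 in column 4 for the difference. *Slc40a1* was at 0.05309 in column 3 with *Myc* deleted and at −0.06358 outside the deeper group for the difference, and *Cp* at −0.02006 outside that group with *Myc* deleted. Leaving out 1 kidney gave −0.2254 to 0.1136 for *Slc40a1* and −0.01813 to 0.07664 for *Aifm2* with *Cxcl12* deleted. With *Myc* deleted it gave −0.04478 to 0.05998 for *Slc40a1*, −0.005892 to 0.08952 for *Slc11a2* and −0.09651 to 0.1911 for *Cp*. For the difference it gave −0.1677 to 0.06904 for *Ftl1*, −0.1148 to 0.2117 for *Slc40a1* and −0.1891 to 0.05273 for *Gpx4*.

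Counts of calls moved more. DESeq2 called 1 member in each cohort against 0 by edgeR, and leaving out 1 kidney gave 0 throughout. Of the wider genes, 0 in the *Cxcl12* cohort became 2 with no filter on low counts, 4 by DESeq2, 2 with the deeper group as covariate, 2 outside it and 0 to 1 with 1 kidney left out (1 without KO 1). In the *Myc* cohort 0 became 2, 7, 7 with the covariate, 4 with all 18 kidneys in 1 fit and 0 to 6 with 1 kidney left out (6 without control 3). Of all genes, 0 in the *Cxcl12* cohort became 214 with no filter, 355 by DESeq2, 123 with the covariate, 80 outside the deeper group, 25 in 1 fit, 9 in column 3 and 0 to 15 with 1 kidney left out (15 without KO 1). The 246 of the *Myc* cohort became 1139 by DESeq2, 954, 8 and 683 under the covariate, outside the deeper group and in 1 fit, and 21 (without KO 2) to 877 (without control 3). An exact permutation p under 0.05 was found in 3 of 18 tests, in 5 without TMM, in 4 and 3 in columns 3 and 4, and in 2 to 5 with 1 kidney left out, alternatives chosen after seeing the data. The 3 are the members without overlap (*Acsl4*, *Slc11a2* and *Tfrc*). Of all genes tested, 9.68% (*Cxcl12*) and 5.97% (*Myc*) did not overlap. The permutation test was run on members only, so these counts show no excess over other genes.

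A replicate block left only 3 pairs of same-numbered kidneys in the *Cxcl12* cohort, because KO 4 and 5 have no control of their number. With this block, 0 members were called in either cohort, 1 wider gene (*Ptgs2*) and 18 genes in all in the *Myc* cohort. *Tfrc* was at −0.36 there (edgeR adjusted p = 0.19) and *Acsl4* at 0.48 (edgeR adjusted p = 0.20) in the *Cxcl12* cohort. Under the block *Aifm2* turned to −0.08048 with *Cxcl12* deleted, *Slc40a1* to 0.0003701 with *Myc* deleted, and the differences of *Ftl1* and *Gpx4* to 0.09067 and 0.006362. Deviations of same-numbered kidneys correlated at −0.03 to 0.13 over 3 pairs and at −0.21 to 0.40 over 5 pairs, with 2 pairs over 0.1 in each cohort, and 2 of 3 and 1 of 5 KO kidneys correlated best with their own number. So few pairs cannot show whether same-numbered kidneys were paired, and the labels give them only a number.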
